A study of Mus musculus with 24 samples.

Results

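Neurofilaments and the microtubule proteins of neurons build the inner scaffold of the axon and the dendrite. The 10 genes described here are Nefl, Nefm and Nefh (the light, medium and heavy neurofilament subunits), Ina and Prph (the neuronal filament proteins alpha-internexin and peripherin), Mapt and Map2 (tau and the dendritic microtubule-associated protein), Tubb3 (the neuronal beta-tubulin), Stmn2 (a stathmin of growing axons that binds tubulin) and Dpysl3 (a collapsin response mediator protein of the growth cone). They were found by the gene name that the array files give to each probe. Of the 41174 probes on the array, 13 carried the current symbol of 8 of these genes, and 5 more carried an older symbol, Prph1 for Prph and Mtap2 for Map2. The 18 probes stand for 10 of the 27597 genes on the array, and 8 of the 10 were bright enough to be tested among 16241 genes.

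The cells were N1E-115, a mouse neuroblastoma line that can extend neurites in culture. Untransfected cells (WT) were compared with a line carrying a fusion called TO and a line carrying a fusion called OT, which join transcobalamin, the blood carrier of vitamin B12 (cobalamin, Cbl), to oleosin, a lipid-droplet protein. The labels describe TO as a fusion that uses the N-terminal side of transcobalamin and binds Cbl tightly, and OT as one that uses the C-terminal side and has no measurable Cbl binding. All 3 were kept either in proliferation medium (p, DMEM with 4.5 g/L glucose and 10% fetal calf serum) or in differentiation medium (d, the same DMEM with 2.5% serum and 1.25% DMSO), which gave the 6 groups WT-p, WT-d, OT-p, OT-d, TO-p and TO-d with 4 samples each. The 24 samples were hybridised in pairs to 12 arrays of 2 colours on 3 slides, and each group had 2 samples in Cy5 (replicates 1 and 2) and 2 in Cy3 (replicates 3 and 4). No group with an empty vector is among these samples, the promoter of the fusions and the number of clones behind each line are not given in the sources used here, and nothing states that the 4 samples of a group came from separate cultures. The p-values therefore measure the spread between these samples, which may be technical.

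Neurofilaments are heteropolymers: the heavy and medium subunits assemble together with the light subunit or with alpha-internexin, and peripherin is the filament protein most typical of peripheral neurons. Tau and Map2 bind along microtubules and stabilise them, tau mostly in axons and Map2 mostly in dendrites and cell bodies, while stathmins such as Stmn2 bind free tubulin dimers. In neuroblastoma cells, low serum with DMSO is a standard way to slow division and bring out neurites.

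Hand2, Gata3, Th and Dbh, which mark sympathoadrenal neuroblasts, were well above background in all 24 samples, where well above background is the scanner software's own mark for a spot. Of 9 glial markers, 4 had that mark in all 24 samples, and of 8 fibroblast and smooth muscle markers, 3 did. None of 8 blood and endothelial markers did, and Ptprc and Cdh5 were not well above background in any sample. Aif1 had the mark in 15 samples and Lyz2 in 14, with highest group means of log2 7.79 and 9.36. The summed linear level of the glial list was 1057 to 1548 in the proliferation groups and 1422 to 2753 in the differentiation groups, and that of the fibroblast and smooth muscle list was 9245 to 11400 and 6542 to 9221. The blood and endothelial list summed to 602.3 to 702.7 in the proliferation groups and 747.5 to 1295 in the differentiation groups, over 8 genes. Their part in the results below was not tested. The share of spots well above background was 54.3 to 65.9% per sample, and the median raw signal was 66.8 to 165.6 intensity units. In 6 groups one sample has the label number of another with a b added (1 and 1b, for example), always in the other dye, and the labels do not say whether both came from one RNA extract. Over 15804 genes, such a pair was the closest of its group in 3 of 6 groups. Deviations from the group mean, with the dye effect taken out, had a median correlation of 0.0145 in these 6 pairs. In the 30 other pairs within groups it was -0.46. Without the 6 b samples 13 of the 72 called member differences were no longer called.

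The promoters of 4 of the 10 members, Ina, Prph, Map2 and Tubb3, are in the RefSeq promoter table of the GRCm38.p6 build. The 250 bases before the start of transcription are shown for Tubb3 and Prph, which fell together in 2 of the 3 lines, and for Map2, whose brightest probe did not fall in any line. All 3 lie on the plus strand, at chr8:123411303-123411552, chr15:99054924-99055173 and chr1:66175079-66175328, and each is printed from 5′ to 3′. Capitals mark the letters TATAA and the GC box letters GGGCGG, each searched on both strands.
Tubb3: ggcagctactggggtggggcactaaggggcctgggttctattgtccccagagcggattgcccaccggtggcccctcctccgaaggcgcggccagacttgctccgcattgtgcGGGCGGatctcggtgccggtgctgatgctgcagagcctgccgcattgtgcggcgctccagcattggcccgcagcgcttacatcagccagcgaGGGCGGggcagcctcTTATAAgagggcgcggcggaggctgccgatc
Prph: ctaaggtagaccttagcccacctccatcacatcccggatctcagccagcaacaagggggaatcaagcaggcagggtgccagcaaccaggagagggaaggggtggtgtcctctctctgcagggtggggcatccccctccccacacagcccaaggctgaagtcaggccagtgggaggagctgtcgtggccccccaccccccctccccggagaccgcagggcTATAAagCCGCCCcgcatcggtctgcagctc
Map2: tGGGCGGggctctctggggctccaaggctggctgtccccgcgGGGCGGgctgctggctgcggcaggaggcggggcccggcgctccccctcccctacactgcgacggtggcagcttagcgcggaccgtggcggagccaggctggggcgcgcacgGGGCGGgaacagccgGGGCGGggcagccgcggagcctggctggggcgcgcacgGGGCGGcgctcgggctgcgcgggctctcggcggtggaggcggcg
Prph held 1 TATAA match, starting 31 bases before the start of transcription, and Tubb3 held 2 overlapping matches of its 2 strands at 31 and 30 bases, while Map2 and Ina held none. The letters TATAA, on either strand, occurred in 22.8% of the 32851 promoter windows of this length. Matches to GGGCGG numbered 5 in Map2, 2 in Tubb3, 2 in Ina and 1 in Prph, and 32.7% of all windows held at least 1. These are letter matches in a sequence and not measured binding sites.

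Of the neurofilament triplet, only the heavy subunit Nefh was detected. Values are normalized log2 intensities, on which a step of 1 is a 2-fold difference, and levels of different probes cannot be set against each other. Nefl has 2 probes (mm8, chromosome 14, 67040911 to 67040971 and 67042139 to 67042198, plus strand). The first read 5.90 to 6.36 over the 24 samples and the second 5.98 to 6.28, and neither was well above background in any sample. Nefm has 1 probe (chromosome 14, 67073466 to 67073525, minus strand) that is printed in 10 spots on each array. Its mean level was 6.02 to 6.20, and 0 of its 240 spot readings were well above background. For scale, the median level of all probes that were not well above background was 6.08 to 6.15 per sample. Both genes therefore had only an upper bound in all 6 groups and were not tested, and these data do not show how well their probes detect the transcripts. By contrast, both probes of Nefh (chromosome 11, 4838918 to 4838977 and 4839629 to 4839688, minus strand) were well above background in all 24 samples.

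**Figure D1:**
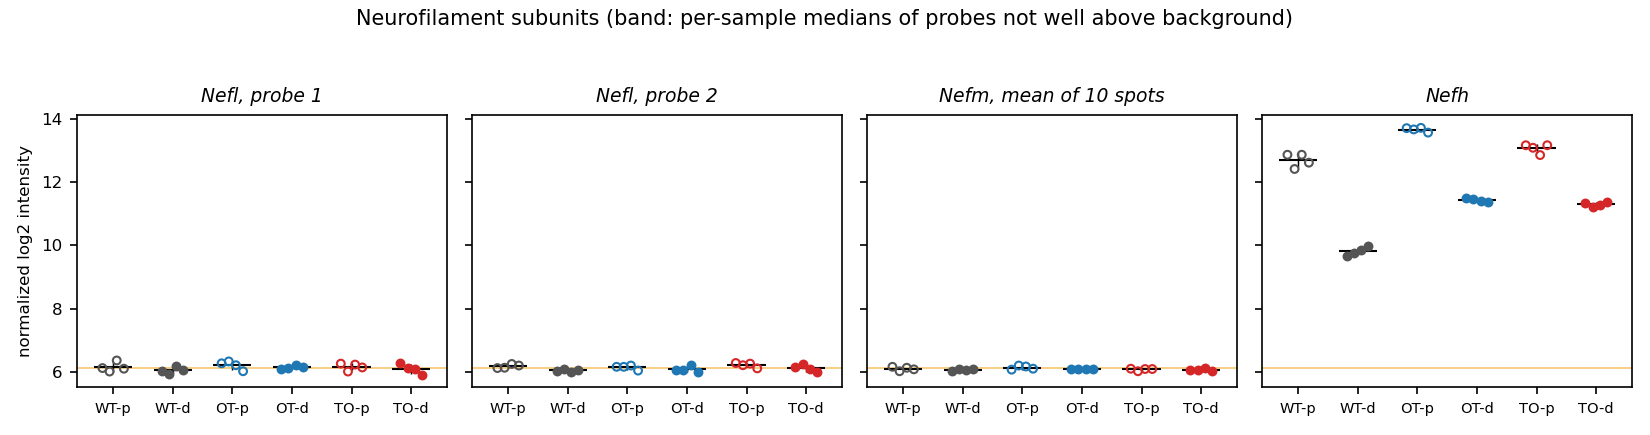
Normalized log2 intensity of the 2 Nefl probes, the Nefm probe and the brighter Nefh probe in each of the 24 samples (points; open for proliferation and filled for differentiation medium), with group means (bars) and SD (thin lines); the band spans the per-sample medians of probes not well above background, 6.08 to 6.15. Nefl and Nefm stay between 5.90 and 6.36 in every sample, and Nefh lies between 9.66 and 13.71.

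Nefh fell in differentiation medium in all 3 lines, more steeply in untransfected cells than in either transfected line. In WT-p its 4 samples read 12.86, 12.41, 12.86 and 12.61, and in WT-d they read 9.66, 9.76, 9.86 and 9.98. In OT-p they were 13.70, 13.66, 13.71 and 13.56, against 11.50, 11.47, 11.40 and 11.37 in OT-d. In TO-p they were 13.16, 13.08, 12.85 and 13.16, against 11.34, 11.20, 11.26 and 11.37 in TO-d. The 4 differentiated samples of each line lay below the 4 proliferating ones with no overlap. The fall was 7.17-fold in WT (log2 -2.84, SE 0.093, limma adjusted p = 5.06e-17), 4.63-fold in OT (log2 -2.21, SE 0.0831, adjusted p = 3.15e-16) and 3.28-fold in TO (log2 -1.72, SE 0.0875, adjusted p = 1.56e-13). The second probe gave log2 -2.47, -2.21 and -1.26 for WT, OT and TO. The response of OT differed from that of WT by log2 0.63 (adjusted p = 0.000263) on the first probe and by 0.26 (adjusted p = 0.359) on the second. In a bulk sample, fewer cells that express a gene and less RNA per cell cannot be told apart.

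The lines also differed in Nefh within a medium. OT-p was 1.98-fold above WT-p (adjusted p = 1.53e-09) and TO-p 1.55-fold below OT-p (adjusted p = 1.78e-06). In differentiation medium OT-d was 3.07-fold and TO-d 2.80-fold above WT-d (adjusted p = 2.05e-12 and 1.06e-10), while TO-d and OT-d differed by log2 -0.13 (95% interval -0.33 to 0.06, adjusted p = 0.27). The order of the group means was OT-p, TO-p, WT-p, OT-d, TO-d and WT-d, over a 14.4-fold range. TO-p and WT-p were neighbours whose samples overlapped, and the samples of OT-d and TO-d met at 11.37. For TO-p against WT-p the probes differed: the brighter gave log2 0.36 (adjusted p = 0.00182; 0.0827 with loess normalization alone) and the other 0.04 (adjusted p = 0.876).

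Ina, which encodes the filament protein that can take the place of the light subunit, moved least. Its group means ran from 9.96 ± 0.139 (SD, n = 4) in WT-d to 10.52 ± 0.186 in TO-d, a 1.47-fold range, and the samples of every pair of neighbouring groups overlapped. WT-d lay 1.32-fold below WT-p (adjusted p = 0.000117), with 4 samples at 10.02, 10.11, 9.78 and 9.94 against 10.70, 10.34, 10.39 and 10.19. TO-d was 1.47-fold above WT-d (log2 0.55, SE 0.0847, adjusted p = 1.62e-05). TO-d was 1.21-fold above TO-p (adjusted p = 0.00397), and OT-d and OT-p differed by log2 -0.06 (95% interval -0.21 to 0.09, adjusted p = 0.466). Ina had a dye difference that the other members did not show at this size: Cy5 samples averaged log2 0.30 above Cy3 samples, with both Cy5 samples above both Cy3 samples in 5 of 6 groups. Without the dye term in the model TO-d against TO-p had an adjusted p of 0.156 and OT-d against WT-d 0.0711. On slide 3 alone TO-d lay log2 -0.03 from TO-p, with no dye term. The only TO-d sample there was in Cy3 and the only TO-p sample in Cy5. The probe is at chromosome 19, 47077871 to 47077930.

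Prph, the filament gene of peripheral neurons, was bright in all 6 groups and fell in differentiation medium in TO and WT, not in OT. Its TO-p samples were the highest of the series, at 15.66, 15.52, 15.24 and 15.57, and TO-d samples were at 14.35, 14.59, 14.52 and 14.40. In WT-p it read 15.16, 15.18, 15.09 and 15.20, and in WT-d 14.74, 14.33, 14.44 and 14.85. The OT samples overlapped between media, with 14.95, 14.96, 15.03 and 14.98 in OT-p and 14.68, 15.06, 14.99 and 14.95 in OT-d. The fall was 2.14-fold in TO (log2 -1.1, SE 0.102, adjusted p = 4.84e-09) and 1.47-fold in WT (adjusted p = 0.000107), and OT moved by log2 0.03 (95% interval -0.17 to 0.23, adjusted p = 0.826). TO therefore stood 1.49-fold above OT in proliferation medium (adjusted p = 3.83e-05) and 1.46-fold below it in differentiation medium (adjusted p = 0.000346). OT-d was 1.31-fold above WT-d (adjusted p = 0.00288), a call that was lost without replicate 2 of WT-d (log2 0.22, adjusted p = 0.104) and without the b samples (log2 0.20, adjusted p = 0.26). Its probe lies at chromosome 15, 98884900 to 98884959.

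**Figure D2:**
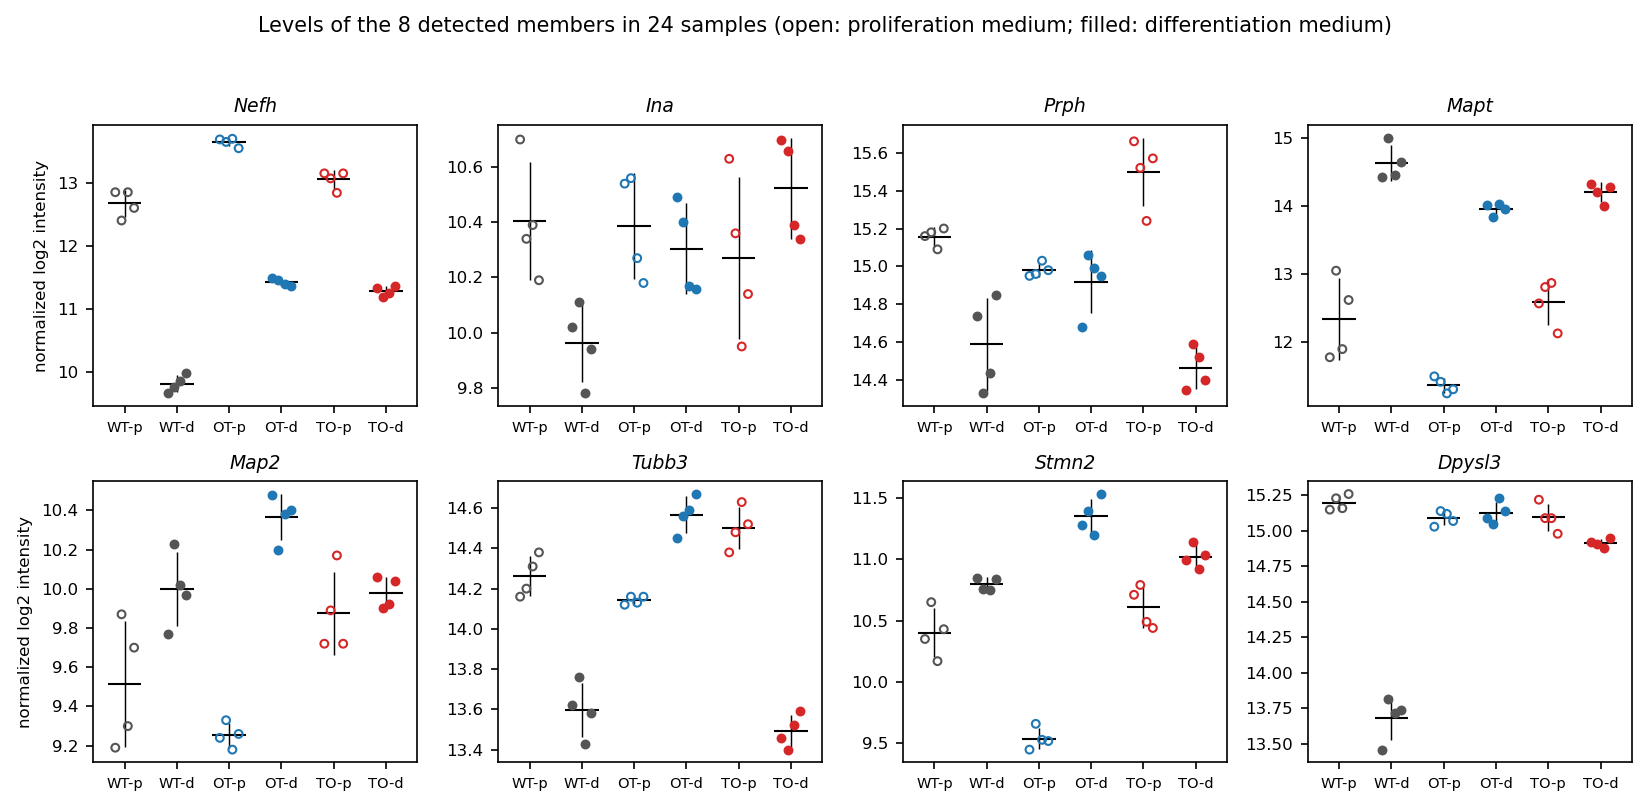
Normalized log2 intensity of the 8 tested members in the 24 samples, by group (points; open for proliferation and filled for differentiation medium; bar, mean; thin line, SD over 4 samples). Each panel has its own axis; Nefh and Mapt span the widest ranges of group means, 14.4-fold and 9.58-fold, and run in opposite directions between media.

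Mapt, the tau gene, rose in differentiation medium in every line. In OT-p it read 11.50, 11.42, 11.25 and 11.31, and in OT-d 14.02, 13.84, 14.03 and 13.95. In TO-p it read 12.57, 12.81, 12.87 and 12.13, and in TO-d 14.32, 14.21, 14.00 and 14.28. In WT-p the samples were split, at 11.78, 13.05, 11.90 and 12.62, and in WT-d they read 14.42, 15.00, 14.45 and 14.65. The groups of the 2 media did not overlap in any line. The rise was 6.03-fold in OT (log2 2.59, SE 0.177, adjusted p = 8.33e-12), 4.94-fold in WT (log2 2.31, SE 0.198, adjusted p = 7.57e-10) and 2.89-fold in TO (log2 1.53, SE 0.186, adjusted p = 3.02e-07). The 3 Mapt probes lie on chromosome 11, plus strand, at 104146121 to 104146180, 104148087 to 104148146 and across 104134327 to 104137487. The other 2 probes gave rises of log2 2.46 and 2.57 in OT, 1.98 and 2.13 in WT, and 1.45 and 1.60 in TO.

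In proliferation medium OT was the line with the least Mapt. OT-p was 1.99-fold below WT-p (adjusted p = 4.45e-05) and TO-p was 2.43-fold above OT-p (log2 1.28, SE 0.185, adjusted p = 3.35e-06), with no overlap in either pair. In differentiation medium OT-d stayed 1.63-fold below WT-d (log2 -0.71, adjusted p = 0.00297), where the other 2 probes gave log2 -0.60 (adjusted p = 0.0708) and -0.52 (adjusted p = 0.0129). TO-d differed from OT-d by log2 0.22 (95% interval -0.19 to 0.63, adjusted p = 0.408). The WT-p samples spread over an SD of 0.60, the largest of any group among the standing (brightest) probes of the members, and the 2 lower samples, 11.78 and 11.90, carry the label numbers 1b and 1. The same split appeared in the other 2 Mapt probes (11.05 and 11.03 against 12.43 and 11.90, and 10.92 and 10.92 against 11.89 and 11.43). TO-p and WT-p differed by log2 0.29 (adjusted p = 0.229), which became 0.49 (adjusted p = 0.0121) without replicate 2 of WT-p.

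Map2, the dendritic relative of tau, rose in OT and WT. In OT-p its samples read 9.24, 9.33, 9.18 and 9.26, and in OT-d 10.48, 10.20, 10.38 and 10.40, a 2.10-fold rise (log2 1.07, SE 0.109, adjusted p = 8.04e-09) with no overlap. In WT the samples overlapped, with 9.19, 9.87, 9.30 and 9.70 in WT-p and 9.77, 10.23, 10.02 and 9.97 in WT-d, a 1.40-fold rise (adjusted p = 0.00135) that was not called without the b samples (adjusted p = 0.0694). The 2 lower WT-p samples were again those numbered 1b and 1. TO-d and TO-p differed by log2 0.09 (95% interval -0.15 to 0.32, adjusted p = 0.576). TO-p was 1.56-fold above OT-p (adjusted p = 4.69e-05). A second Map2 probe that was well above background in all 24 samples did not follow the first: it read 6.88 to 7.29 in all samples and gave log2 -0.22 for OT-d against OT-p (adjusted p = 0.00395) and -0.06 for WT-d against WT-p (adjusted p = 0.44). On chromosome 1 the first probe is at 66375417 to 66375476 and the second at 66372188 to 66372247. The remaining 2 Map2 probes were not well above background in any sample.

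Tubb3, the tubulin isotype that marks neurons, fell in differentiation medium in WT and TO and rose in OT. Its probe (chromosome 8, 126307891 to 126307950) is printed in 10 spots per array, whose SD within a sample was 0.066 in the median sample. In TO-p the samples read 14.38, 14.48, 14.63 and 14.52, against 13.46, 13.40, 13.52 and 13.59 in TO-d. In WT-p they read 14.16, 14.20, 14.31 and 14.38, against 13.62, 13.76, 13.43 and 13.58 in WT-d. OT ran the other way, from 14.12, 14.16, 14.13 and 14.16 in OT-p to 14.45, 14.56, 14.59 and 14.67 in OT-d. No pair of media overlapped. The fall was 2.01-fold in TO (log2 -1.0, SE 0.0729, adjusted p = 7.54e-11) and 1.58-fold in WT (adjusted p = 9.74e-08), and the rise in OT was 1.30-fold (adjusted p = 4.80e-05). In differentiation medium OT therefore held 2.06-fold more Tubb3 than TO (log2 -1.04 for TO-d against OT-d, SE 0.0775, adjusted p = 3.84e-10) and 1.88-fold more than WT (adjusted p = 9.72e-10). In proliferation medium TO-p was 1.26-fold above OT-p (adjusted p = 0.000368). The fall of Tubb3 and Prph in WT and TO is the shared movement for which their promoters are printed above. Nefh and Dpysl3 were also called lower in both lines, but the RefSeq promoter table does not hold them. Whether the promoter letters bear on these changes was not tested.

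Stmn2 rose in all 3 lines, and by far the most in OT, the line that started lowest. Its OT samples went from 9.45, 9.66, 9.53 and 9.52 to 11.28, 11.39, 11.20 and 11.53, a 3.69-fold rise (log2 1.88, SE 0.0809, adjusted p = 3.17e-15). In WT they went from 10.35, 10.65, 10.17 and 10.43 to 10.85, 10.76, 10.75 and 10.84 (1.37-fold, adjusted p = 0.000146; 0.0746 with loess alone). In TO they went from 10.71, 10.79, 10.49 and 10.44 to 10.99, 11.14, 10.92 and 11.03 (1.28-fold, adjusted p = 0.0013). None of the 3 lines overlapped between media, and OT changed from the lowest group of the series to the highest. OT-p was 1.85-fold below WT-p (adjusted p = 5.20e-09) and TO-p 2.21-fold above OT-p (log2 1.14, SE 0.0847, adjusted p = 1.70e-10). In differentiation medium the order turned, with OT-d 1.46-fold above WT-d (adjusted p = 1.39e-05) and TO-d 1.31-fold below OT-d (adjusted p = 0.00147; 0.0708 with loess alone). The probe is at chromosome 3, 8544334 to 8544393, and a second probe at 8530658 to 8530717 was well above background in 2 of 24 samples.

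Dpysl3 was high in 5 groups and low in WT-d. It read 15.15, 15.23, 15.16 and 15.26 in WT-p and 13.46, 13.82, 13.72 and 13.74 in WT-d, a 2.78-fold fall (log2 -1.48, SE 0.0729, adjusted p = 6.20e-14). OT-p read 15.03, 15.14, 15.12 and 15.07 and OT-d 15.09, 15.05, 15.23 and 15.14, a difference of log2 0.04 (95% interval -0.09 to 0.18, adjusted p = 0.564). TO-p read 15.22, 15.09, 15.09 and 14.98 and TO-d 14.92, 14.91, 14.88 and 14.95, a 1.14-fold fall (adjusted p = 0.0209) that was not called without the b samples (adjusted p = 0.102). WT-d was thus apart from both transfected lines: OT-d was 2.67-fold (adjusted p = 3.43e-13) and TO-d 2.31-fold (adjusted p = 6.00e-11) above it. In proliferation medium the 3 lines lay within log2 0.10 of each other, and no pair was called (adjusted p = 0.19 to 0.793).

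Over the 8 tested members, the change of medium gave differences in both directions in every line. In WT, 8 of 8 members were called, 3 higher (Mapt, Map2 and Stmn2) and 5 lower (Nefh, Ina, Prph, Tubb3 and Dpysl3), where 66.6% of all genes tested were called, 35.8% higher and 30.8% lower. In TO, 7 of 8 were called, 3 higher (Ina, Mapt and Stmn2) and 4 lower (Nefh, Prph, Tubb3 and Dpysl3), beside 52.3% of all genes (26.5% higher, 25.9% lower). In OT, 5 of 8 were called, 4 higher (Mapt, Map2, Tubb3 and Stmn2) and only Nefh lower, beside 67.5% of all genes (36.4% higher, 31.1% lower). A large part of the array was called between media, and the share of members called in OT was near that of all genes. The median absolute log2 difference of the members was 0.61 in WT, 0.68 in TO and 0.72 in OT, beside 0.38, 0.24 and 0.38 over all genes tested. With loess normalization alone, 38.6% and not 53.7% of the genes called in WT were higher, and 6 members were called there, 1 higher and 5 lower.

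**Figure D3:**
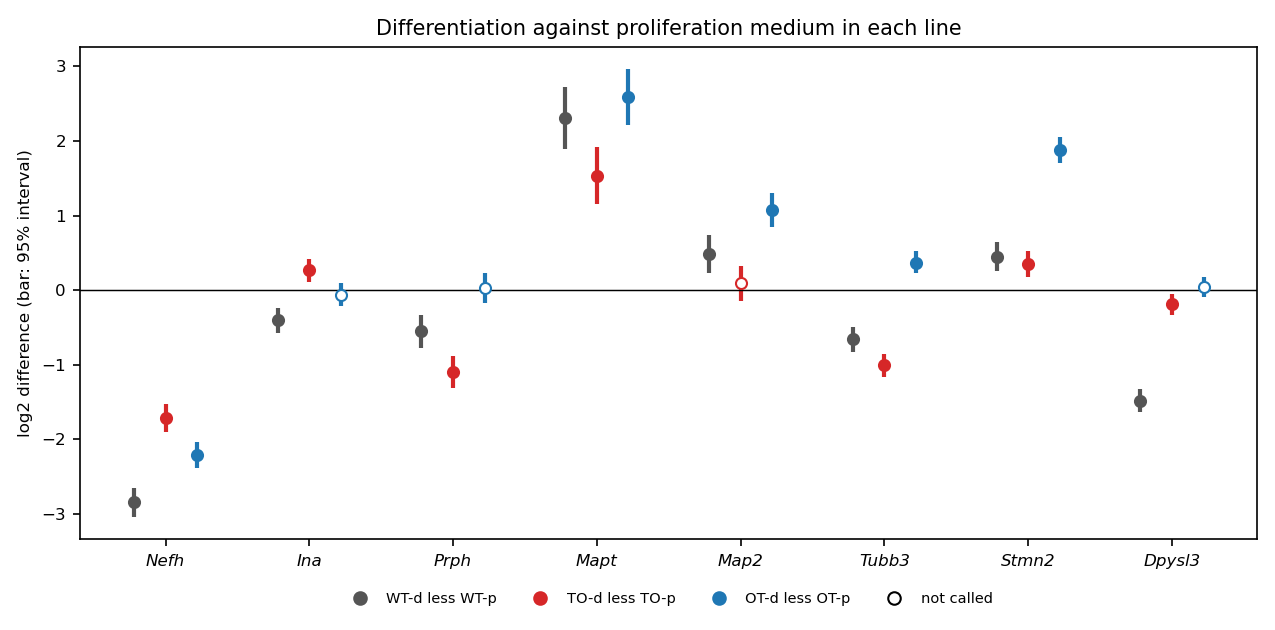
Fitted log2 difference between differentiation and proliferation medium for the 8 tested members in WT, TO and OT (points; bars, 95% intervals from limma; open points were not called at an adjusted p under 0.05). Mapt and Stmn2 lie above 0 and Nefh below 0 in all 3 lines, while Tubb3 lies below 0 in WT and TO and above it in OT.

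Between TO and OT, 4 of the 8 members were called in opposite directions in the 2 media. How many of all genes tested did so was not counted. In proliferation medium 6 of 8 members were called, 5 higher in TO (Prph, Mapt, Map2, Tubb3 and Stmn2) and 1 lower (Nefh), beside 56.2% of all genes (30% higher, 26.2% lower). In differentiation medium 6 of 8 were called, 1 higher in TO (Ina) and 5 lower (Prph, Map2, Tubb3, Stmn2 and Dpysl3), beside 39.9% of all genes (19% higher, 20.9% lower). Those 4 were Prph, Map2, Tubb3 and Stmn2, with TO the higher line in proliferation medium and OT the higher in differentiation medium. The second Map2 probe did not show this, with log2 -0.05 (adjusted p = 0.541) in proliferation and 0.03 (adjusted p = 0.769) in differentiation medium. Nefh (log2 -0.63 and -0.13) and Mapt (1.28 and 0.22) kept their sign in both media. The calls in differentiation medium were less stable: 3 members remained called without replicate 1 of TO-d and 2 (Prph and Tubb3) with loess alone, where 66.6% of the called genes of the array were higher in TO-d and not 47.6%. The call of Ina held in 22 of 35 alternatives. Ina (log2 0.21), Map2 (-0.34) and Dpysl3 (-0.21) were the smaller differences, with adjusted p = 0.0357, 0.0282 and 0.0228, and without the b samples Ina (adjusted p = 0.143) and Dpysl3 (adjusted p = 0.0642) were not called.

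**Figure D4:**
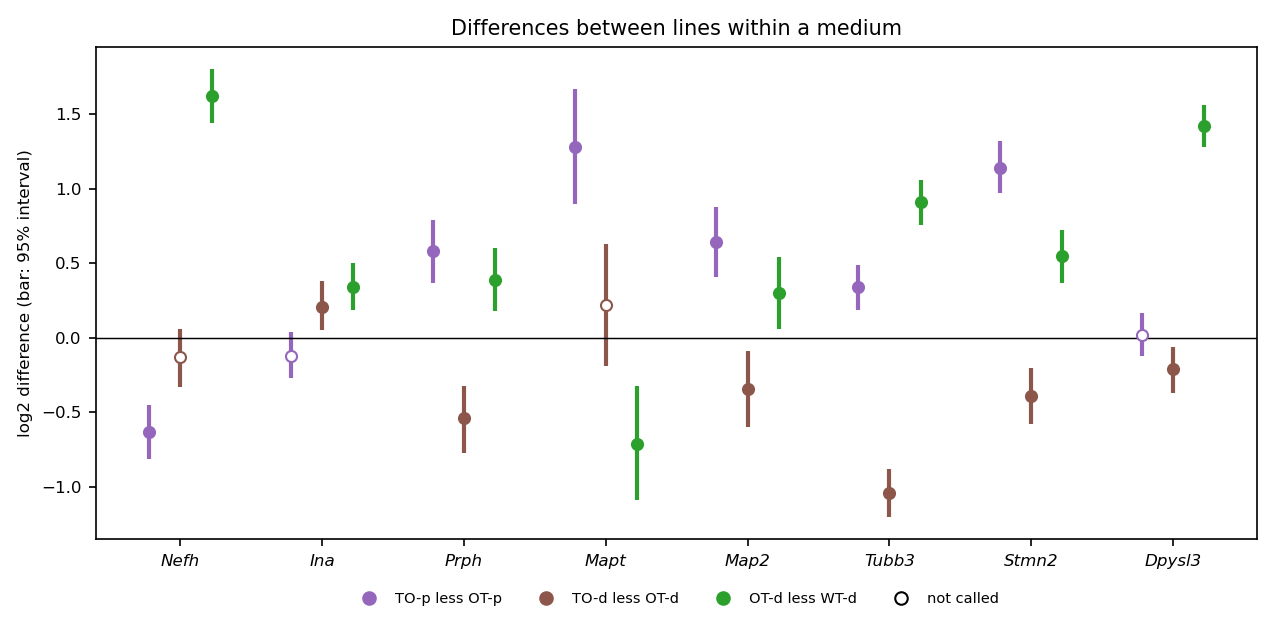
Fitted log2 differences between lines for the 8 tested members: TO less OT in proliferation medium, TO less OT in differentiation medium, and OT less WT in differentiation medium (points; bars, 95% intervals from limma; open points were not called). Prph, Map2, Tubb3 and Stmn2 lie above 0 for TO-p less OT-p and below 0 for TO-d less OT-d.

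Against untransfected cells, more members were called for OT in differentiation than in proliferation medium. In OT-p 4 of 8 members were called, with Nefh higher and Mapt, Map2 and Stmn2 lower than in WT-p, beside 44.7% of all genes (20.6% higher, 24.1% lower; 31.6% and not 46.1% of the called genes were higher with loess alone). The Map2 difference (log2 -0.29, adjusted p = 0.0277) was not called without replicate 2 of WT-p (log2 -0.13, adjusted p = 0.351). In OT-d all 8 tested members were called, 7 higher and only Mapt lower than in WT-d, beside 51.8% of all genes (26.7% higher, 25.2% lower). Map2 had the smallest of these differences, log2 0.30 (adjusted p = 0.0327; 0.0664 with slide as a covariate). The second Map2 probe was called in neither medium, with log2 0.13 (adjusted p = 0.0787) in OT-p and -0.02 (adjusted p = 0.793) in OT-d. The median absolute difference of the members was log2 0.63 in OT-d and 0.24 in OT-p, beside 0.24 and 0.18 over all genes, again not matched for brightness.

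TO-p and WT-p differed by less than 1.5-fold in every tested member, while Nefh and Dpysl3 differed by more than 2-fold between TO-d and WT-d. In TO-p 5 of 8 members were called, all higher than in WT-p (Nefh, Prph, Map2, Tubb3 and Stmn2, log2 0.21 to 0.39), beside 35.1% of all genes (19.1% higher, 16% lower). That count depended on the samples: it was 2 without the b samples, 2 without replicate 1 of WT-p, 3 without replicate 3 of WT-p, 3 without replicate 3 of TO-p, and 1 with loess alone, where 40.5% and not 54.5% of the called genes were higher. Of the 5, Prph (1.31-fold, adjusted p = 0.00317) was called in all 35 alternatives. The second probes of Map2 and Nefh gave log2 0.08 (adjusted p = 0.365) and 0.04 (adjusted p = 0.876). In TO-d 3 of 8 were called, Nefh, Ina and Dpysl3, all higher than in WT-d, beside 46.6% of all genes (23% higher, 23.6% lower; 74.7% and not 49.3% of the called genes were higher with loess alone). The differences were 2.80-fold for Nefh, 2.31-fold for Dpysl3 and 1.47-fold for Ina.

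The response to the medium itself differed between lines for most members, as tested by the interaction of line and medium. Between TO and OT it differed for 7 of 8 members, beside 40.2% of all genes (17.4% higher, 22.9% lower; 54.6% and not 43.2% of the called genes higher with loess alone). Stmn2 (log2 -1.53, adjusted p = 6.21e-09), Tubb3 (-1.38, adjusted p = 3.41e-09), Prph (-1.12, adjusted p = 3.35e-06), Mapt (-1.06, adjusted p = 0.00295) and Map2 (-0.99, adjusted p = 6.13e-05) responded less upward, or more downward, in TO than in OT, and Nefh (0.50) and Ina (0.33; adjusted p = 0.102 without the b samples) the other way. On the second Map2 probe this difference was log2 0.08 (adjusted p = 0.534). Between OT and WT it differed for 7 of 8, all higher in OT, beside 35% of all genes (20.5% higher, 14.5% lower; 79.9% and not 58.5% higher with loess alone). Dpysl3 (log2 1.52, adjusted p = 2.18e-10), Stmn2 (1.43, adjusted p = 7.34e-09) and Tubb3 (1.04, adjusted p = 6.34e-08) led, and Mapt differed by 0.29 (95% interval -0.24 to 0.81, adjusted p = 0.406). Without the b samples Ina (adjusted p = 0.184) and Prph (adjusted p = 0.117) were not called. On the second probes the response differed by log2 -0.15 (adjusted p = 0.196) for Map2 and 0.26 (adjusted p = 0.359) for Nefh. Between TO and WT it differed for 6 of 8, with Dpysl3 (1.28), Nefh (1.13) and Ina (0.67) higher and Mapt (-0.77), Prph (-0.54) and Tubb3 (-0.34) lower in TO, beside 36.7% of all genes (17.7% higher, 19% lower). The Mapt difference was called in 25 of 35 alternatives, and its other 2 probes gave log2 -0.53 each (adjusted p = 0.258 and 0.0981). Without the b samples Mapt (adjusted p = 0.18) and Tubb3 (adjusted p = 0.15) were not called, which left 3 members higher and 1 lower. With loess alone 3 members were called in that comparison, all higher, and 80.4% of called genes were higher and not 48.3%. These 3 comparisons share groups, since the medium response of each line enters 2 of them. Within the slides that held both groups of a pair, 117 of the 118 differences of called members had the sign of the pooled difference. Ina in TO on slide 3 was the exception. These differences carry no dye term. They come from the samples of the pooled fit and only from members called there. The same sign was therefore likely from the start.

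The same change of medium was read in 5 lists of related genes, each to be set beside all genes tested, of which 35.8% were called higher and 30.8% lower in WT, 26.5% and 25.9% in TO, and 36.4% and 31.1% in OT. Tubulins other than Tubb3 mostly fell: of 16 tested, 10 fell and 3 rose in WT (median log2 -0.85), 15 fell and 1 rose in TO (-0.85), and 10 fell and 2 rose in OT (-0.35), beside medians of 0.06, 0.00 and 0.04 over all genes. Tubb6 gave log2 -1.82, -2.18 and -2.56 in WT, TO and OT. Tubg2, a gamma-tubulin of the microtubule-organising centre, was the tubulin that rose in all 3 lines (log2 0.97, 0.44 and 1.09). Tubb2b, a beta-tubulin of developing neurons, rose in WT (log2 1.26, adjusted p = 0.000114) and OT (1.47, adjusted p = 3.35e-06) and fell in TO (-1.32, adjusted p = 4.73e-05), so that its response in TO differed from that in OT by log2 -2.79. Tuba1a, the alpha-tubulin of young neurons, fell in WT (-1.50) and TO (-0.71) and was not called in OT (0.19). The medium response of the tubulins in TO against that in OT was called for 13 of 16, 2 higher and 11 lower (8 without the b samples). Of all genes tested, 40.2% were called in that comparison, 17.4% higher and 22.9% lower. Tubulin genes are near copies of each other, and how far each probe tells them apart is not known from the files.

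Genes of other intermediate filaments and their linkers also mostly fell: 8 of 12 fell and 2 rose in WT, 7 fell and 3 rose in TO, and 8 fell and 3 rose in OT, with medians of log2 -0.53, -0.72 and -0.77, beside 0.06, 0.00 and 0.04 over all genes. Without the b samples 1 and not 3 rose in TO. The nuclear lamins Lmnb1 (log2 -3.64, -2.85 and -3.45 in WT, TO and OT) and Lmnb2 (-1.82, -1.01 and -1.62) were among them, as were Vim (-1.24, -2.04 and -1.30) and Nes (-1.24, -1.33 and -1.51), which encode filament proteins of dividing progenitors. Plec, the cytolinker plectin, rose in WT (log2 1.09), TO (0.77) and OT (1.03), and Dst, a linker of filaments and microtubules, by 0.71, 0.76 and 0.91 (without the b samples Dst was not called in TO, adjusted p = 0.0736).

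**Figure D5:**
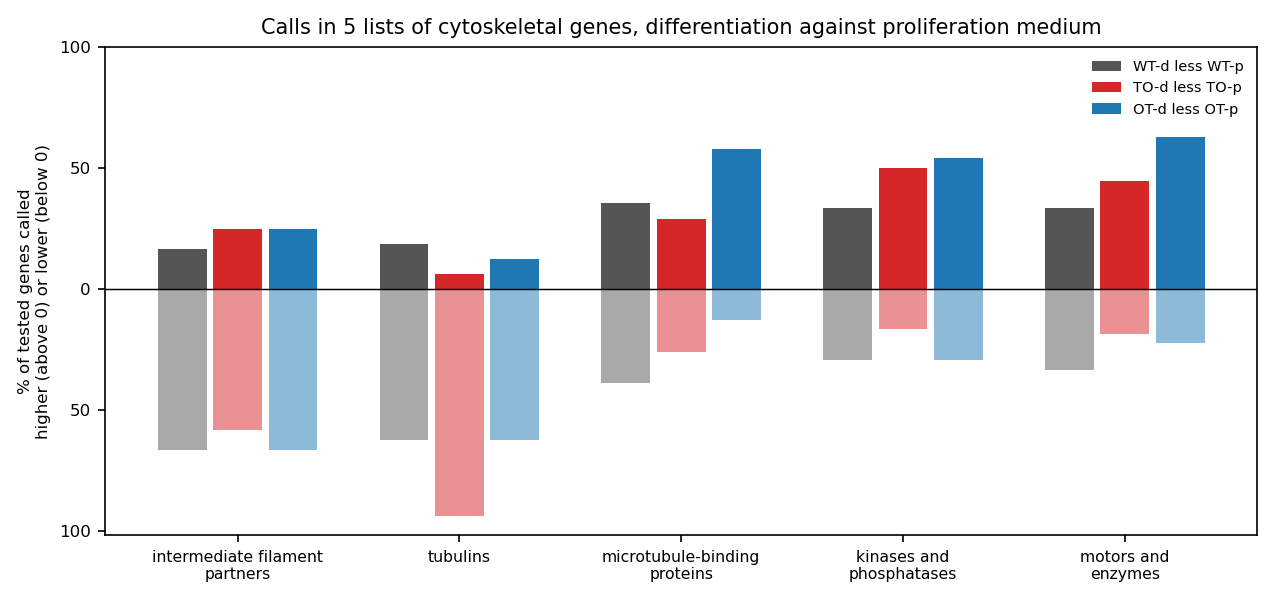
Percent of the tested genes of 5 lists (12, 16, 31, 24 and 27 genes) called higher (bars above 0) or lower (paler bars below 0) in differentiation than in proliferation medium in WT, TO and OT. Of the tubulins, 15 of 16 are lower in TO, and of the microtubule-binding proteins 18 of 31 are higher in OT.

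Of 31 relatives of Mapt, Map2, Stmn2 and Dpysl3 and other proteins of microtubules and the growth cone, 18 rose and 4 fell in OT (median log2 0.45), against 11 and 12 in WT (-0.03) and 9 and 8 in TO (0.02). Stmn1, the stathmin of dividing cells, fell in all 3 lines (log2 -2.21 in WT, -1.43 in TO and -1.04 in OT), opposite to Stmn2. Stmn4, a neuronal stathmin, rose in OT by log2 1.83 (adjusted p = 1.28e-11). Gap43, a growth cone protein, rose in OT (0.61) and fell in WT (-0.70) and TO (-0.42), and its response differed between OT and WT by log2 1.31 (without the b samples the fall in TO was not called, adjusted p = 0.0694). Map1b, a microtubule protein of growing axons, fell in WT (-0.93) and was not called in TO (0.13) or OT (-0.10), and in TO-d it stood log2 1.55 above WT-d. Dpysl2, a relative of Dpysl3, was called between media in OT (0.43) and not in WT (0.01) or TO (0.10). Dcx, which marks young migrating neurons, had group means of 6.19 to 6.50 and was not tested. In differentiation medium 18 of the 31 were higher and 2 lower in OT than in WT (median log2 0.31), beside -0.01 over all genes. The share of the list called there was 64.5%. Of all genes tested, 51.8% were called in the same comparison, with 26.7% higher and 25.2% lower.

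Among kinases and phosphatases that act on tau and neurofilaments, 13 of 24 rose and 7 fell in OT, 12 rose and 4 fell in TO, and 8 rose and 7 fell in WT. That is 83.3%, 66.7% and 62.5% of the list called, beside 67.5%, 52.3% and 66.6% of all genes, so the count in WT was near that of the array. Mapk3 (ERK1) rose by log2 1.57 in OT and 0.83 in WT, and Mark4, a tau kinase, by 0.74 and 1.1. Cdk5r1, the activator of the neuronal kinase Cdk5, rose in WT (0.66, adjusted p = 2.2e-06), and was lower in TO than in OT in both media (log2 -0.83 in proliferation and -1.13 in differentiation medium). Of the microtubule motors, severing proteins and tubulin-modifying enzymes, 17 of 27 rose and 6 fell in OT, 12 rose and 5 fell in TO, and 9 rose and 9 fell in WT. The share called was 85.2% in OT, 63% in TO and 66.7% in WT, the last again near that of all genes. The axonal kinesin Kif1a rose in OT (1.31) and WT (0.96), and Kif3c in all 3 lines (1.28 in OT, 0.77 in WT and 0.69 in TO).

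The neighbours of Stmn2 on chromosome 3 did not share one pattern. Mrps28, a mitochondrial ribosomal protein gene 241 kb away, was higher in TO than in OT in both media (log2 2.26 and 2.18), where Stmn2 gave 1.14 and -0.39. Tpd52, 369 kb away, gave 1.80 and 1.26, and Hey1, 102 kb away, gave -0.27 and 0.08. On the other side Zc2hc1a, 1008 kb away, gave 0.58 and -0.34. Pkia, 1117 kb away, gave -0.63 and -0.19, and Pex2, 2998 kb away, gave -0.74 and -0.98. In differentiation medium Hey1, Zc2hc1a and Pkia were not called (limma adjusted p = 0.568, 0.0914 and 0.276). Beside Nefl and Nefm on chromosome 14, the nearest tested genes by probe position were Kctd9, Gnrh1 and Dock5 on one side, 335 to 378 kb away, and Adam28 on the other, and Dock5 was called in all 9 pairs of groups.

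By the correlation of levels over the 24 samples, which share lines, media and arrays in their groups, the gene most like Mapt was Tmx4 (Pearson r 0.989), the gene most like Nefh was Plch1 (0.981), and the gene most like Stmn2 was Cyb561 (0.982), out of 13792 genes compared. Map2 was most like Dync2li1 (0.949), Dpysl3 most like 0610010F05Rik (0.934), Tubb3 most like Cela1 (0.903), Prph most like Ece1 (0.882) and Ina most like Upf3b (0.842). No member was among the 3 genes most like another member.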

How the data were processed

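RNA of 24 samples was hybridised to 12 Agilent 2-colour arrays with 1 sample in each dye, from 0.2 ug of RNA per the labels' protocols. The deposited scanner files hold raw spot and local background intensities of each dye, produced by version 10.5.1.1 of Agilent's Feature Extraction (per the file headers), with flags of 0 or 1 for spots well above background or unlike their neighbours. The authors' deposited series table holds a normalized signal per probe, whose scale and centring are not stated; its channel medians are 102.0 to 107.7, and it was used as an alternative only.

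In limma 3.58.1 (R 4.3.3, statmod 1.5.0), normexp with an offset of 50 corrected mean signals for local background. Before it, 143 spots with a local background over 5 times the channel median were set aside, a step chosen after the data were seen. The 1639 control spots were left out, followed by loess within arrays and Aquantile between them. Outlier spots were dropped, spots of a probe averaged, and each gene was represented by its brightest probe on average. A gene was tested where all 4 samples of some group had it well above background (11356 of 27597 were removed). The fit had 6 group means, a dye term and the array as block (intraspot correlation 0.453), so its differences are not exactly those of the printed means. Benjamini-Hochberg adjustment ran over 16241 genes, and adjusted p under 0.05 was called. The number of arrays limits the precision. The fit was also run on data simulated from its own model, which cannot show whether its p-values hold for these samples.

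All 10 members are named. List genes are named from the 4 largest called differences per list and direction, beside 9 fixed genes (Gap43, Map1b, Dcx, Stmn1, Dpysl2, Tubb2b, Tuba1a, Vim and Nes), the 3 genes most like each member and the neighbours of Stmn2, Nefl and Nefm. Members and lists were chosen with earlier results of these data known. Promoter sequences are RefSeq's for GRCm38.p6, and probe positions are those of the files, mm8. Exons and untranslated regions of mm8 were not used here. A marker gene of the neuroblast list is not reported here.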

Additional observations from a re-analysis of the deposited data

Results flagged for a closer look

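No sample stood apart from the other 3 of its group in any of 48 groups of member values checked (by Dixon's 95% critical value for 4 samples, where chance would mark about 1 in 20). The medium response differed between lines, by limma's interaction test, in 20 of 24 comparisons of members. Of all genes tested, 40.2% were called for TO less OT, 36.7% for TO less WT and 35% for OT less WT. The 24 comparisons are not independent, since the response of each line enters more than 1 of them. TO less OT gave log2 0.50 for Nefh, 0.33 for Ina, -1.12 for Prph, -1.06 for Mapt, -0.99 for Map2, -1.38 for Tubb3 and -1.53 for Stmn2. TO less WT gave 1.13 for Nefh, 0.67 for Ina, -0.54 for Prph, -0.77 for Mapt, -0.34 for Tubb3 and 1.28 for Dpysl3. OT less WT gave 0.63 for Nefh, 0.34 for Ina, 0.58 for Prph, 0.59 for Map2, 1.04 for Tubb3, 1.43 for Stmn2 and 1.52 for Dpysl3. Without the b samples Ina was not called for TO less OT, nor Mapt and Tubb3 for TO less WT. Ina and Prph were then not called for OT less WT.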

How the results depend on the processing

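Of 96 member differences, 72 were called, 50 of these in all 35 alternatives, and all 72 kept their sign in each of the 35. With loess alone 2 members and not 6 were called for TO-d against OT-d, 1 and not 5 for TO-p against WT-p, and 3 and not 6 for the response of TO against WT. Processed signals called 5 members and not 3 for TO-d against WT-d, and leaving out the b samples gave 2 for TO-p against WT-p. With each sample left out in turn the counts ran from 3 to 6 for TO-d against OT-d and from 2 to 6 for TO-p against WT-p. Ina in TO-d against TO-p turned to log2 -0.03 (from 0.27) within slide 3. There the only TO-d sample was in Cy3 and the only TO-p sample in Cy5. Differences within a slide carry no dye term, and Ina averaged log2 0.30 higher in Cy5. The cause was not tested. Loess alone ended 14 calls, leaving out the b samples 13 (3 samples a group remain, where all 24 were fitted before), no dye term 5 and slide as covariate 2. Over all genes, 3775 and not 5706 were called for TO-p against WT-p without the b samples. Loess alone moved the median of all genes by log2 0.13 in TO-d against WT-d, -0.13 in WT-d against WT-p and 0.17 in the response of TO against WT, and processed signals by 0.13 in WT-d against WT-p. Signal over background limits Nefl and Nefm to an upper bound.

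With the replicate number as a block, the replicate block left all 12 counts of called members as they were (6, 6, 5, 3, 4, 8, 8, 7, 5, 7, 6 and 7) and changed 0 of 96 calls. The numbers do not pair the samples: 60 same-numbered pairs correlated at -0.304 to 0.334 in their deviations, and 2 of 24 samples correlated best with their own number.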
